A study of Arabidopsis thaliana with 6 samples.

Results

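The genes described here run the cell division cycle of Arabidopsis thaliana: A-, B- and D-type cyclins, cyclin-dependent kinases (CDKs), the KRP and SIM families of CDK inhibitors, the retinoblastoma protein and E2F factors, the MCM helicase and PCNA, CDC20.1 and KNOLLE. They were chosen by locus, with earlier results of these data known, as a fixed set of 50 out of 26984 nuclear protein-coding genes measured. All 50 were present. Expression was measured by RNA-seq in 3 libraries of wild type (accession Col-0, libraries 1 to 3) and 3 libraries of hy5-215 (libraries 4 to 6), a mutant allele of HY5, which encodes a leucine zipper transcription factor of light-regulated development. Both groups were seedlings 7 days old, kept in short days and taken at zeitgeber time 20 h, counted from lights-on, and no treatment is named for either. RNA came from whole seedlings, so each value averages dividing cells with a large number of cells that no longer divide, and in such bulk samples fewer dividing cells and less of a transcript per cell cannot be told apart.

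In the cycle, D-type cyclins bind CDKA and release E2F factors from the retinoblastoma protein, which opens the way to DNA replication. A-type cyclins then act from S phase into G2, and B-type cyclins with plant-specific B-type CDKs drive mitosis. Many plant genes of late G2 and mitosis carry MSA elements, which are bound by MYB3R factors, and many replication genes carry E2F sites. In seedlings most division takes place in the meristems, in young leaves and in the stomatal lineage. Cells that leave division often go on copying DNA without mitosis, which KRP, SIM and SMR inhibitors promote.

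HY5 itself, the check of the labels, was measured at 13.4, 12.99 and 13.9 FPKM in the wild-type libraries, in order of number, FPKM being fragments scaled by gene length and library size. In the hy5 libraries it was 3.04, 1.88 and 3.02 FPKM, a log2 fold change of -2.001 (SE 0.14, limma adjusted p = 5.37e-07). Summed FPKM was 528554 to 556418 per library. Absolute depth is unknown, and the lowest values put the other libraries at 0.940 to 1.03 times the depth of wild type 1. Nothing in the labels tells whether replicates were grown separately, so each p-value reflects library-to-library spread, part or all of which could be technical. Wild type 3 was the lowest wild-type library for 30 of the 45 cell cycle genes that could be tested, and for 8801 of 17205 genes overall.

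More of these genes were lower in hy5 than higher. Of the 50 genes, 45 reached 1 FPKM in at least 3 libraries and were tested, none of them through 1 group alone. With limma on log2(FPKM + 1) and an adjusted p under 0.05, 13 were lower in hy5, against 11.1% of all genes tested, and 1 was higher, against 11.7%. The 13 are 28.9% of the 45, and the remaining 31 were not called. In either direction the same rule called 22.8% of all genes. The fitted difference was below 0 for 32 of the 45, with a median log2 fold change of -0.23, where the median over all genes tested was -0.00094. The 3 hy5 values lay below all 3 wild-type values for 20 of the 45, against 3361 of 17205 genes tested (19.5%). They lay above for 2 of the 45, against 3548 of 17205 (20.6%). Of the 14 called genes, 13 differed by less than 1 on the log2 scale. The count of lower genes was 8 without wild type 1, 6 without hy5 4 and 5 without hy5 6, and without wild type 3 it was 16, with 3 higher.

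**Figure D1:**
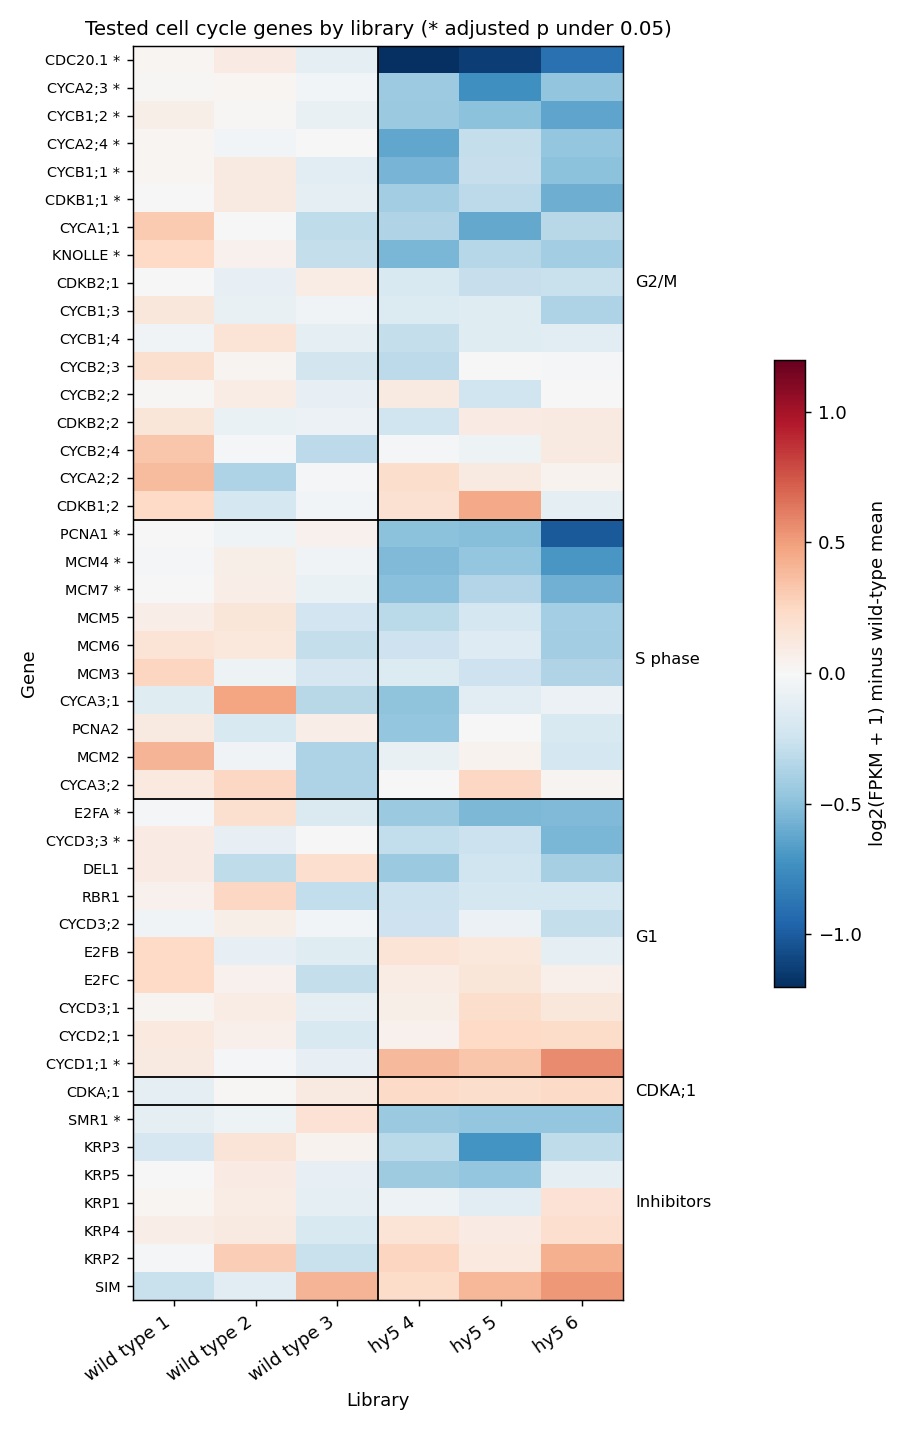
Level of each of the 45 tested genes in the 6 libraries, as log2(FPKM + 1) minus the wild-type mean of that gene (colour), in blocks by phase, with asterisks on genes past an adjusted p of 0.05. Blue fills most of the hy5 side of the G2/M and S phase blocks, 14 of 17 and 9 of 10 genes having a fitted difference below 0, and the G1 and inhibitor blocks are mixed.

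Of the 13 lower genes 7 act in G2 and mitosis. Of 19 genes, 17 were tested, 7 were lower (41.2%, against 11.1% of all genes) and none was higher by limma, against 11.7%. An unadjusted limma p under 0.05 was found for 9 of the 17, all with hy5 below. That threshold takes in 17.7% of all genes on the lower side and 35.9% in either direction. The groups did not overlap for 11 of the 17, all with hy5 below, an order found for 19.5% of all genes. The median log2 fold change of the 17 was -0.24. The 19 genes summed to 111.4, 101.7 and 91.8 FPKM in wild type 1 to 3 against 73.6, 77.4 and 75.2 FPKM in hy5 4 to 6. Without wild type 1, hy5 4 or hy5 6 the count of lower G2/M genes was 3, out of 8, 6 and 5 lower genes in all, and without wild type 2 it was 4 out of 10.

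CDC20.1 (AT4G33270), an activator of the anaphase-promoting complex, which marks cyclins for destruction, differed more than any other of the 45. In RefSeq TAIR10.1 it lies at chr4:16044169-16046937 on the minus strand with 5 exons. Wild-type levels were 9.69, 10.2 and 8.66 FPKM, and those in hy5 were 3.45, 3.81 and 4.63 FPKM. The highest hy5 library was well below the lowest wild-type library. Means were 9.53 ± 0.803 and 3.96 ± 0.608 FPKM (SD, n = 3 each), a ratio of 0.416 and a log2 fold change of -1.09 (SE 0.13, limma adjusted p = 6.77e-05). Its neighbour CDC20.2, whose transcript is 89.0% identical over 1774 bases, moved the same way (3.19 ± 0.601 to 1.40 ± 0.0740 FPKM, log2 fold change -0.80, adjusted p = 0.00171). How reads that fit both genes were assigned is not given in the sources used here.

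Among the B-type cyclins, whose build-up takes cells into mitosis, 2 of 7 tested genes were lower (28.6%, against 11.1% of all genes). The B1 cyclin CYCB1;2 (AT5G06150) was at 8.03, 7.68 and 7.07 FPKM in wild type and at 5.29, 5.10 and 4.55 FPKM in hy5. All 3 hy5 values were under the wild-type range, with a log2 fold change of -0.52 (SE 0.12, adjusted p = 0.00678). A stretch of 386 bases of its transcript is 97.9% identical to AT1G34460, at 0.390 ± 0.133 FPKM in wild type and 0.470 ± 0.149 FPKM in hy5, so reads from that stretch are uncertain. CYCB1;1 (AT4G37490), widely used as a marker of cells between G2 and mitosis, was low in both groups, at 2.22, 2.40 and 1.89 FPKM in wild type and at 1.15, 1.62 and 1.25 FPKM in hy5. The ranges again did not overlap (log2 fold change -0.44, SE 0.14, adjusted p = 0.0418), and this call was lost without wild type 1 or 2, without hy5 4 or 6 and with no filter on low values, where the adjusted p reached 0.174. CYCB1;3 and CYCB1;4 also had all hy5 libraries below wild type, at ratios of 0.809 and 0.846, but did not pass (adjusted p = 0.258 and 0.320). The B2 cyclins CYCB2;2, CYCB2;3 and CYCB2;4 overlapped between the groups, with log2 fold changes of -0.04, -0.11 and 0.01. CYCB2;1 was under the filter, at 0.880 ± 0.215 FPKM in wild type and 0.795 ± 0.377 FPKM in hy5.

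The A1 and A2 cyclins, which act between S phase and mitosis, gave 2 lower genes of only 4 tested, against 11.1% of all genes. CYCA2;3 (AT1G15570), known for holding back the switch from division to endoreduplication, was nearly constant in wild type, at 8.25, 8.31 and 7.95 FPKM. In hy5 it was at 5.76, 4.50 and 5.59 FPKM, below wild type in every library (log2 fold change -0.55, SE 0.12, adjusted p = 0.00590). CYCA2;4 (AT1G80370) was at 4.11, 3.91 and 4.05 FPKM in wild type and at 2.26, 3.11 and 2.63 FPKM in hy5. It too did not overlap (log2 fold change -0.46, SE 0.14, adjusted p = 0.0261), with the call lost without wild type 1, hy5 4 or hy5 6, where the adjusted p reached 0.146. CYCA1;1 ranged from 5.23 to 8.54 FPKM in wild type and from 4.03 to 5.12 FPKM in hy5, and its log2 fold change of -0.44 just missed the threshold (adjusted p = 0.0607). It passed under the median-ratio, upper-quartile and quantile scalings and without wild type 3, the lowest adjusted p being 0.0142. CYCA2;2 overlapped (0.958 ± 0.505 and 1.08 ± 0.122 FPKM), and CYCA2;1 was under the filter at 0.222 ± 0.217 and 0.184 ± 0.0684 FPKM.

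CDKB1;1 (AT3G54180), a plant-specific kinase that partners A2 cyclins, was at 5.73, 6.23 and 5.19 FPKM in wild type and at 4.02, 4.40 and 3.48 FPKM in hy5. Every hy5 library was below every wild-type library (log2 fold change -0.44, SE 0.13, adjusted p = 0.0270). Significance was lost on leaving out wild type 1 or 2 or hy5 4 or 6 (adjusted p up to 0.142). Its close relative CDKB1;2, at 84.9% identity over 707 bases, was not called, with 2.76 ± 0.597 FPKM in wild type and 3.27 ± 0.838 FPKM in hy5 (log2 fold change 0.18, 95% confidence interval -0.19 to 0.54, adjusted p = 0.496). CDKB2;1 was at 12.9 ± 0.917 and 10.7 ± 0.417 FPKM with no overlap but did not pass (adjusted p = 0.110), and CDKB2;2 was at 5.63 ± 0.592 and 5.59 ± 0.865 FPKM.

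KNOLLE (AT1G08560), the syntaxin that fuses vesicles into the cell plate during cytokinesis, had the highest level of the called G2/M genes. Wild type 1, 2 and 3 were at 24.0, 21.0 and 16.4 FPKM and hy5 4, 5 and 6 at 13.5, 15.8 and 14.9 FPKM. The ranges did not overlap, although wild type 3 was only just above the highest hy5 library (log2 fold change -0.44, SE 0.13, adjusted p = 0.0249). The call was lost without wild type 1 or 2, without hy5 4 or 6 and with no filter on low values (adjusted p up to 0.107). Exons of KNOLLE share 464 bases with those of NPQ1 on the opposite strand, which was at 22.6 ± 2.89 and 25.9 ± 1.05 FPKM and was not called, and whether strand was used in counting is not given in the sources used here. Of the 50 genes, 17 share exon bases with another gene, 7 of the 14 called genes among them.

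**Figure D2:**
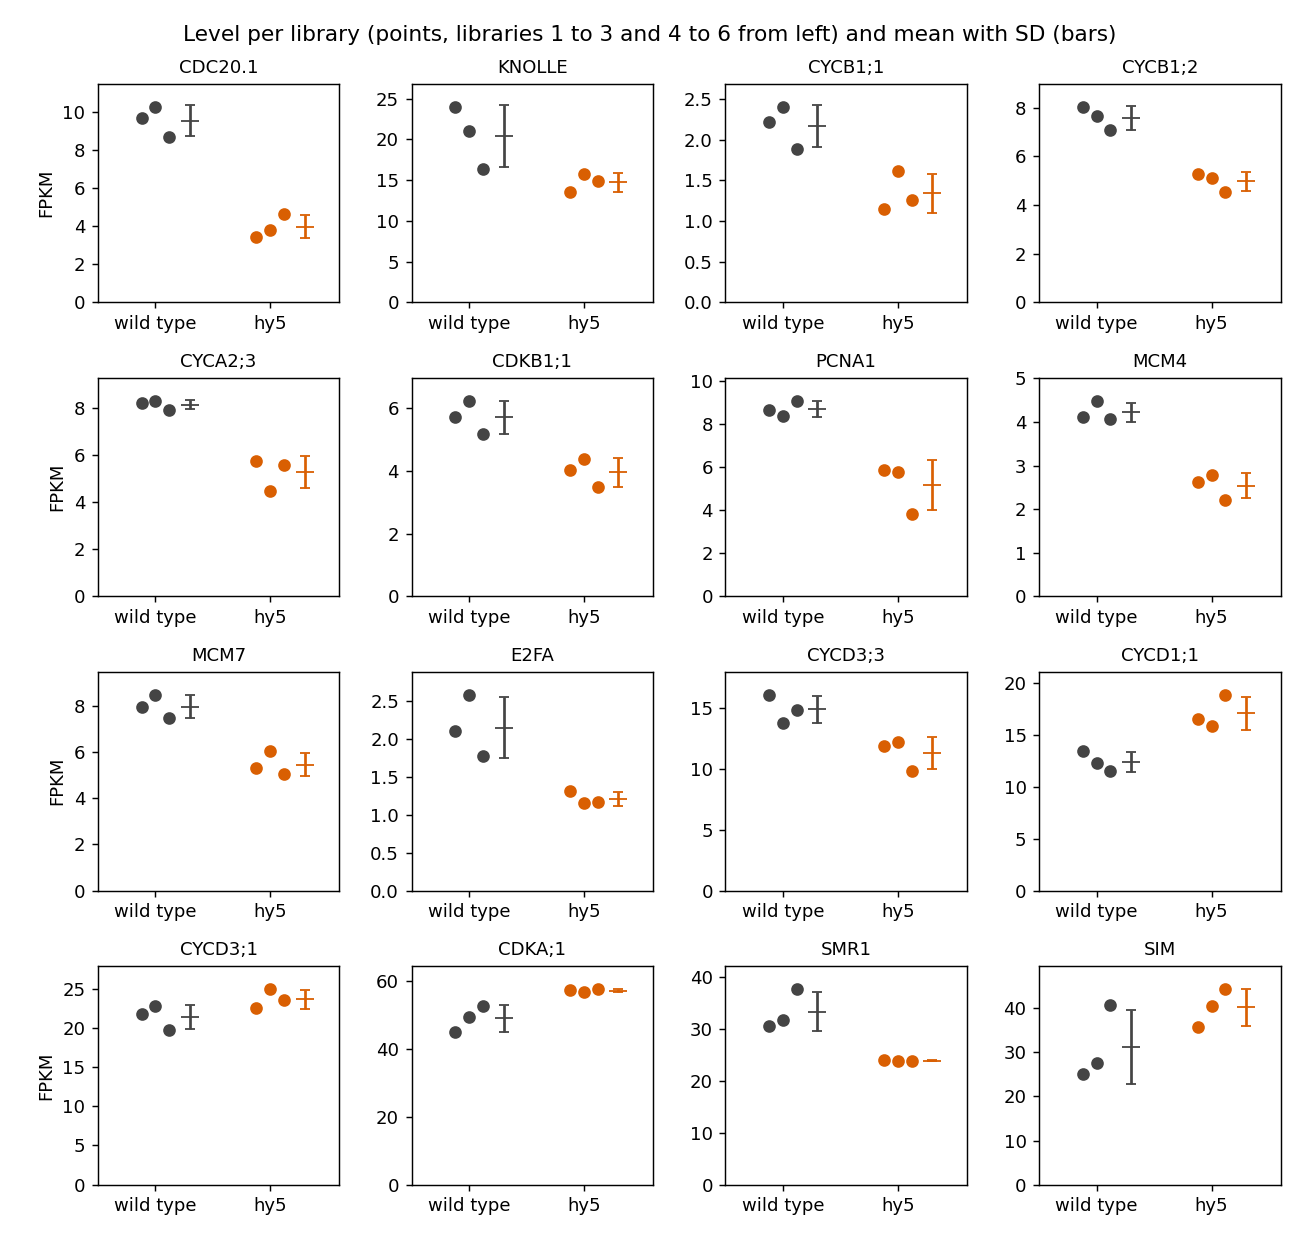
FPKM of 16 genes in each library (points) with the group mean and SD (bars), wild type in grey and hy5 in orange, each panel starting at 0. From CDC20.1 to CYCD3;3 and for SMR1 every hy5 point is under every wild-type point, CYCD1;1 and CDKA;1 show the opposite order, and CYCD3;1 and SIM overlap.

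The stretch of 250 bases before the gene start was read for all members from the RefSeq TAIR10.1 genome, since many mitotic genes are known to share the MSA element there. The core of that element, AACGG on either strand, was found in 20.6% of windows over all genes (5557 of 26983) and in 10 of the 19 G2/M genes (52.6%). Among the 8 B-type cyclins the core was in 6, all but CYCB1;4 and CYCB2;4. It was also in 4 of the 7 KRP genes (57.1%), in 2 of the 10 S phase genes and in 3 of the 11 G1 genes. The windows of CYCB1;1 and CYCB1;2, which hold it 3 and 4 times, are shown with that of CDC20.1, the most reduced gene, in which it was not found. Each is written 5′ to 3′ along the gene, on the minus strand, with the core in capitals on whichever strand it was read. They lie at chr4:17624309-17624558, chr5:1861704-1861953 and chr4:16046938-16047187. A match of 5 letters is a description of the sequence and does not show binding.
CYCB1;1: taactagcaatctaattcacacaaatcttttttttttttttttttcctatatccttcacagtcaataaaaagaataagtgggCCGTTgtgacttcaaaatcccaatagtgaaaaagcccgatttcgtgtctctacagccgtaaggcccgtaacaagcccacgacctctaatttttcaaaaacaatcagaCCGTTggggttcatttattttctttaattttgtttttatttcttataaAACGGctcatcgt
CYCB1;2: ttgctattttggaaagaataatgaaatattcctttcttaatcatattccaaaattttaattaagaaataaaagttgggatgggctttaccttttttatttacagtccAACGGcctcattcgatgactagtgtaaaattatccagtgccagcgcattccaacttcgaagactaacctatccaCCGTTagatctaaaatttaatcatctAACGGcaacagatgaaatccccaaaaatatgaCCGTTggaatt
CDC20.1: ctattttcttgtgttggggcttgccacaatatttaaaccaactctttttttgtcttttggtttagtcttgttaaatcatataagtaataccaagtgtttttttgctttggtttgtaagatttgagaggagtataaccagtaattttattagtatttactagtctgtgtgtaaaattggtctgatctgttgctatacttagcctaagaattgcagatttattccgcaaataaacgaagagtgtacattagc
Of the 7 lower G2/M genes the core was found before CYCB1;1, CYCB1;2 and KNOLLE and not before the other 4. It was also found before CYCB1;3, CYCB2;2, CYCB2;3, CYCA1;1 and CDKB2;2, which were tested and not called. The remaining G2/M genes with the core were CYCB2;1 and CYCA2;1, which were under the filter. The G-box CACGTG, a palindrome to which HY5 is known to bind, was in 6.5% of windows over all genes and in 2 of the 50 members, CYCB2;3 and KRP1, neither of which was called.

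Genes of S phase had fitted differences mostly below 0, with fewer calls. All 10 were tested, 3 were lower, against 11.1% of all genes, and none was higher, against 11.7%. The fitted difference was below 0 for 9 of the 10, against 8626 of 17205 genes tested. The unadjusted limma p was under 0.05 for 4, all of them lower, against 17.7% of all genes on that side. The genes had a median log2 fold change of -0.27. Summed levels were 74.1, 72.7 and 60.9 FPKM in wild type and 54.6, 64.4 and 53.8 FPKM in hy5, so hy5 5 exceeded wild type 3. Without hy5 6 the count of lower genes was 1.

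PCNA1 (AT1G07370), the sliding clamp that holds DNA polymerase on its template (chr1:2263037-2264553, plus strand, 4 exons), was at 8.67, 8.36 and 9.06 FPKM in wild type and at 5.89, 5.80 and 3.81 FPKM in hy5. Wild type was tight and hy5 6 was the lowest library (log2 fold change -0.67, SE 0.14, adjusted p = 0.00490). PCNA2, 85.7% identical to it over 788 bases, was at 14.6, 11.8 and 14.3 FPKM in wild type and at 9.53, 13.4 and 11.7 FPKM in hy5. These ranges overlapped (log2 fold change -0.22, 95% confidence interval -0.50 to 0.06, adjusted p = 0.248). Its exons share 279 bases with ENOC on the other strand.

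The 6 MCM genes encode the ring that unwinds DNA at the replication fork, and all 6 had a fitted difference below 0. MCM4 (AT2G16440) was at 4.12, 4.48 and 4.07 FPKM in wild type and at 2.63, 2.78 and 2.22 FPKM in hy5, without overlap (log2 fold change -0.56, SE 0.13, adjusted p = 0.00801). MCM7 (AT4G02060) was at 7.98, 8.48 and 7.51 FPKM in wild type and at 5.33, 6.04 and 5.04 FPKM in hy5, again without overlap (log2 fold change -0.48, SE 0.12, adjusted p = 0.0113). The MCM4 call was lost without hy5 6 (adjusted p up to 0.0551), and the MCM7 call without hy5 4 or 6 (up to 0.0676). MCM5 was at 4.66, 4.95 and 3.59 FPKM in wild type and at 3.29, 3.63 and 3.04 FPKM in hy5, where the highest hy5 library passed wild type 3 by a narrow margin (log2 fold change -0.32, 95% confidence interval -0.62 to -0.01, adjusted p = 0.122). It was called without wild type 3 (adjusted p = 0.0291). MCM2, MCM3 and MCM6 overlapped between groups, with ratios of 0.905, 0.7505 and 0.735 and adjusted p of 0.765, 0.249 and 0.224.

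An E2F site was searched for before these genes as any of TTTCCCGC, TTTCGCGC, TTTGCCGC or TTTGGCGC on either strand. It was present in 383 of 26983 windows over all genes (1.4%) and in 5 of the 6 MCM windows, all but that of MCM7. The 30 bases around each site are shown because the helicase genes share it while differing in their calls, written 5′ to 3′ along the gene with the site in capitals. In RefSeq TAIR10.1 they lie at chr2:3527501-3527530 (minus strand), chr1:16970184-16970213 (plus), chr5:18773858-18773887 (minus), chr5:18010695-18010724 (minus) and chr2:7130746-7130775 (minus).
MCM5: cggcccatcagTTTCCCGCcacattgttcc
MCM2: caaattggcgccaataTTTCCCGCctaatc
MCM3: ggaaatcaaacGCGCCAAAcaagcgcgtag
MCM6: tatactttttaGCGGGAAAatgttagagga
MCM4: cagtaataatgGCGCCAAAatcaagtgaag
MCM5 and MCM2 hold the same 8 letters in the same direction, 19 and 14 bases before the gene start, and MCM6 holds them on the opposite strand at 46. MCM3 and MCM4 share TTTGGCGC on the opposite strand, at 170 and 35. MCM4 was called and MCM3 was not, and MCM7 was called with no such letters in its window. The site was in no G2/M window of the 19, and outside the helicase it was found before RBR1 and CYCD3;3.

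The A3 cyclins, which act around the start of S phase, were not called. CYCA3;2 was at 21.3, 23.4 and 14.9 FPKM in wild type and between 19.6 and 23.3 FPKM in hy5, with wild type 3 lowest of all (log2 fold change 0.10, adjusted p = 0.673). CYCA3;1 was at 1.70 ± 0.835 and 1.25 ± 0.334 FPKM (log2 fold change -0.23, adjusted p = 0.446).

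**Figure D3:**
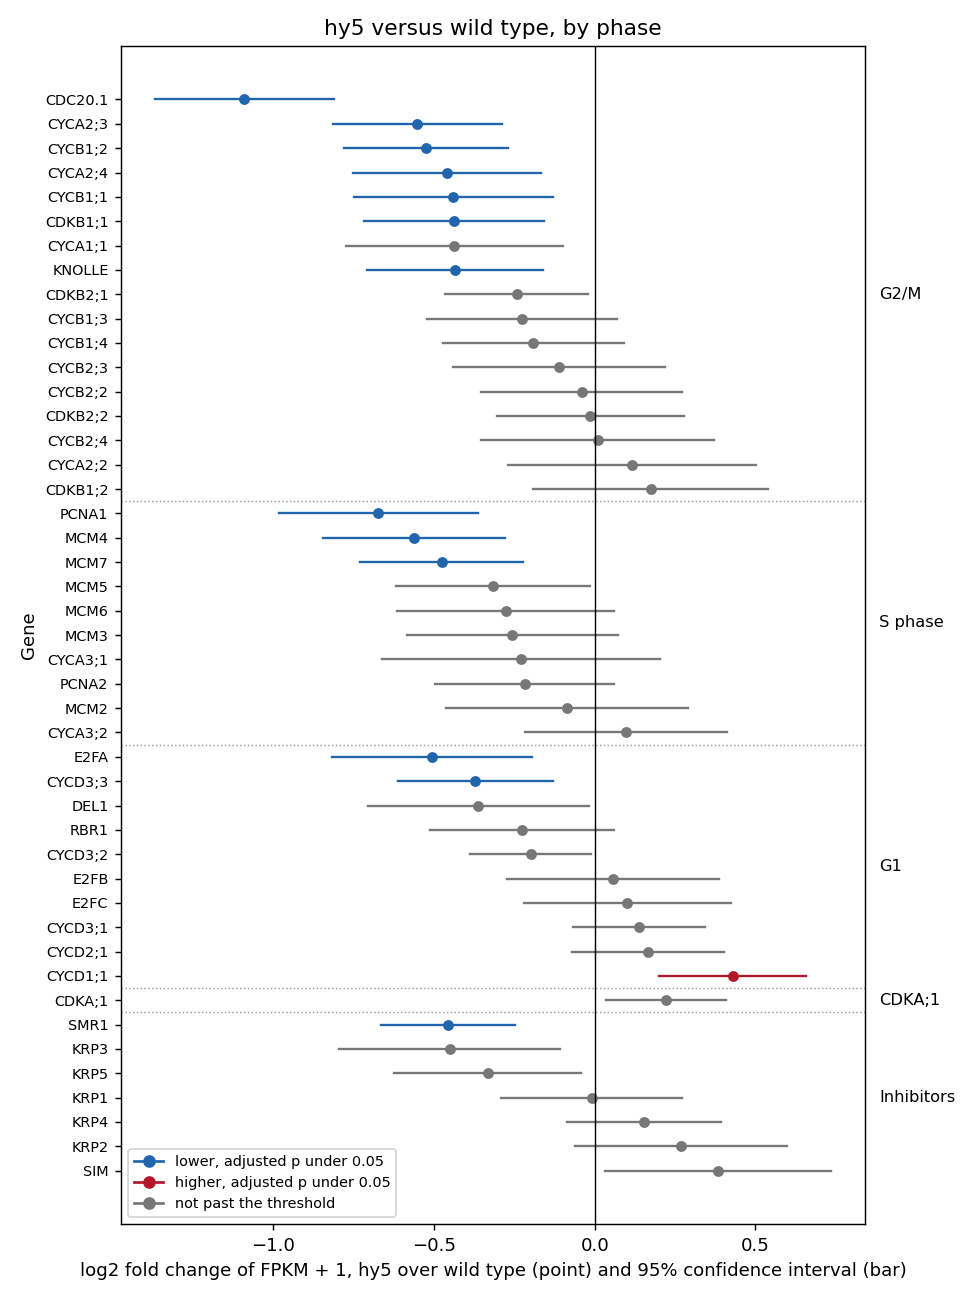
Log2 fold change of FPKM + 1 in hy5 over wild type (points) with 95% confidence intervals (bars) for the 45 tested genes by phase, blue for lower and red for higher at an adjusted p under 0.05 and grey for the rest. CDC20.1 stands apart at -1.09, the other called lower genes lie between -0.67 and -0.37, and CYCD1;1 at 0.43 is the red point.

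Of 11 genes of G1 10 were tested, with 2 lower and 1 higher, beside 11.1% and 11.7% of all genes, and a median log2 fold change of -0.07. The lower count was 0 without wild type 1, hy5 4 or hy5 6, and 1 without hy5 5, and the higher count was 0 without hy5 6. The D-type cyclins, which answer to growth signals, differed among themselves. CYCD1;1 (AT1G70210, chr1:26439556-26443007, plus strand) was at 13.4, 12.3 and 11.6 FPKM in wild type and at 16.6, 15.8 and 18.8 FPKM in hy5. It was the one gene of the 45 called higher, with every hy5 library above wild type (log2 fold change 0.43, SE 0.11, adjusted p = 0.0110), and it lost that call without hy5 6 (adjusted p up to 0.0784). CYCD3;3 (AT3G50070), one of the D3 cyclins that keep leaf cells dividing, was at 16.0, 13.8 and 14.9 FPKM in wild type and at 11.9, 12.2 and 9.83 FPKM in hy5. All hy5 values were lower (log2 fold change -0.37, SE 0.11, adjusted p = 0.0297), with the call lost without wild type 1, hy5 4 or hy5 6 (adjusted p up to 0.172).

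The other D3 cyclins did not pass. CYCD3;1 (AT4G34160) was at 21.8, 22.7 and 19.7 FPKM in wild type and at 22.5, 24.9 and 23.6 FPKM in hy5, overlapping at one library (log2 fold change 0.14, 95% confidence interval -0.07 to 0.34, adjusted p = 0.321). CYCD3;2 had the highest level of all 50 genes, at 74.6, 80.2 and 75.1 FPKM in wild type and at 64.5, 72.8 and 62.8 FPKM in hy5, without overlap (log2 fold change -0.20, adjusted p = 0.120). CYCD2;1 was at 14.6 ± 1.67 and 16.5 ± 1.21 FPKM, and CYCD4;1 was under the filter at 0.819 ± 0.157 and 0.560 ± 0.266 FPKM.

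Of the E2F pathway, E2FA (AT2G36010), an activating factor, was lower and the other 4 genes were not called. E2FA was at 2.11, 2.58 and 1.77 FPKM in wild type and at 1.31, 1.15 and 1.17 FPKM in hy5. The groups did not overlap (log2 fold change -0.51, SE 0.14, adjusted p = 0.0225), but the call was lost without wild type 1 or 2 or without any 1 of the hy5 libraries (adjusted p up to 0.0871). E2FB, the other main activator, was at 2.08, 1.45 and 1.37 FPKM in wild type and at 1.93, 1.86 and 1.41 FPKM in hy5, mixed in order (log2 fold change 0.06, 95% confidence interval -0.27 to 0.39, adjusted p = 0.826). E2FC, a repressor, was at 3.48 ± 0.807 and 3.75 ± 0.140 FPKM.

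RBR1 (AT3G12280), the retinoblastoma protein that holds E2F factors in check, was at 10.7, 12.4 and 8.22 FPKM in wild type and at 8.49, 8.77 and 8.77 FPKM in hy5. Wild type 3 lay below all hy5 libraries and the other wild-type libraries above them (log2 fold change -0.23, 95% confidence interval -0.51 to 0.06, adjusted p = 0.244), and without wild type 3 the gene was called lower (adjusted p = 0.0222). DEL1, an atypical E2F that delays endoreduplication, was at 2.03, 1.29 and 2.25 FPKM in wild type and at 1.08, 1.39 and 1.14 FPKM in hy5, with wild type 2 inside the hy5 range (log2 fold change -0.36, 95% confidence interval -0.70 to -0.02, adjusted p = 0.120). It was called lower without wild type 2 (adjusted p = 0.0383). Exons of DEL1 share 307 bases with ALDH10A9 on the opposite strand, which rose in hy5 (20.9 ± 0.798 to 25.8 ± 0.747 FPKM, adjusted p = 0.0300).

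CDKA;1 (AT3G48750), the kinase that serves all phases, was at 44.9, 49.4 and 52.6 FPKM in wild type and at 57.3, 56.7 and 57.5 FPKM in hy5. Every hy5 library was above wild type, but the difference did not pass (log2 fold change 0.22, 95% confidence interval 0.04 to 0.41, adjusted p = 0.0817), except without wild type 3 (adjusted p = 0.0271).

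The inhibitors of CDKs gave 1 call among 7 tested genes, a lower one (14.3%, near the 11.1% of all genes). Their median log2 fold change was -0.01. Summed levels overlapped, at 86.3 to 105.1 FPKM in wild type and 89.7 to 101.2 FPKM in hy5. SMR1 (AT3G10525, also LGO, a gene of 1 exon at chr3:3281306-3282131 on the minus strand), which promotes endoreduplication and the giant cells of the sepal epidermis, was at 30.6, 31.8 and 37.7 FPKM in wild type and at 24.1, 23.8 and 23.9 FPKM in hy5. The hy5 libraries were almost equal and all below wild type (log2 fold change -0.46, SE 0.10, adjusted p = 0.00460). SIM (AT5G04470), its relative that stops division in trichomes, was at 25.1, 27.6 and 40.8 FPKM in wild type and at 35.7, 40.5 and 44.3 FPKM in hy5. Here wild type 3 fell inside the hy5 range (log2 fold change 0.38, 95% confidence interval 0.03 to 0.73, adjusted p = 0.111), and without it SIM was called higher (adjusted p = 0.00381). Exons of SMR1 and SIM share 333 and 249 bases with a gene on the opposite strand, neither of which was called.

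None of the 5 KRP genes tested was called by limma. An unadjusted limma p under 0.05 was found for 2, both lower in hy5, against 17.7% of all genes on that side and 35.9% in either direction. KRP2 (AT3G50630) was at 4.70, 6.12 and 3.80 FPKM in wild type and at 5.95, 5.29 and 6.79 FPKM in hy5, overlapping (log2 fold change 0.27, 95% confidence interval -0.06 to 0.60, adjusted p = 0.227). KRP3 and KRP5 had all hy5 libraries below wild type, at ratios of 0.616 and 0.761 (adjusted p = 0.0578 and 0.0942), and KRP3 was called with upper-quartile scaling and without wild type 1, the lower adjusted p being 0.0450. KRP1 and KRP4 overlapped, with log2 fold changes of -0.01 and 0.15, and KRP6 and KRP7 were under the filter with means between 0.414 and 0.745 FPKM.

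Other genes of the pathway were read from 5 lists of 72 genes, also chosen with earlier results of these data known. Of these, 67 were in the tables and 55 were tested. In all, 13 were lower (23.6%, against 11.1% of all genes) and none was higher by limma, with a median log2 fold change of -0.17. An unadjusted limma p under 0.05 was found for 20 of the 55, all of them lower in hy5 except DPB. That threshold takes in 17.7% of all genes on the lower side and 35.9% in either direction. Without hy5 4 the count of called genes was 7. The 3 histone H3.1 genes measured, the H3 form laid down during replication, were all lower: AT5G65360 went from 86.2 ± 6.65 to 55.0 ± 4.53 FPKM, AT5G10400 from 40.4 ± 2.36 to 24.4 ± 2.19 FPKM and AT5G10390 from 17.6 ± 1.17 to 9.78 ± 2.86 FPKM. Their log2 fold changes were -0.64, -0.71 and -0.82 (limma adjusted p = 0.000369, 0.000189 and 0.00451), and no library overlapped. Lower calls took in 11.1% of all genes, and ranges without overlap with hy5 below 19.5%. Sequence identity was examined for the 50 members only, so reads shared among the 3 H3.1 genes were not assessed.

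Of 12 replication factors tested 2 were lower (16.7%, near the 11.1% of all genes), with a median of -0.26. The 2 lower genes encode small subunits of ribonucleotide reductase, which makes the DNA precursors. TSO2 went from 38.2 ± 1.77 to 26.7 ± 3.48 FPKM (log2 fold change -0.50, adjusted p = 0.00338) and RNR2A from 8.38 ± 0.807 to 5.70 ± 0.411 FPKM (-0.48, adjusted p = 0.0107, lost without hy5 4 at 0.0599). Of the origin and fork genes among them ORC1B, ORC2, CDC6A, CDT1A and CDC45 were tested and not called. ORC1A and MCM10 were under the filter and had no test, ORC1A at 0.432 ± 0.163 FPKM in wild type and 0.199 ± 0.00375 FPKM in hy5 without overlap, and MCM10 at 0.597 ± 0.0462 and 0.497 ± 0.318 FPKM.

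Of 14 genes of mitotic kinases, motors and the checkpoint 4 were lower (28.6%, against 11.1% of all genes), with a median of -0.23. Besides CDC20.2 they were AUR2 (3.39 ± 0.322 to 1.94 ± 0.303 FPKM, log2 fold change -0.58, adjusted p = 0.00955) and AUR1, both aurora kinases of the spindle, and PANS1, which protects sister chromatid cohesion (4.57 ± 0.607 to 2.89 ± 0.439 FPKM, -0.52, adjusted p = 0.0185). The AUR2 call was lost without hy5 4 (adjusted p = 0.0592), and the PANS1 call without wild type 1 or 2 or hy5 4 or 6 (up to 0.0984).

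Among 18 further regulators 4 were lower (22.2%, against 11.1% of all genes), with a median of -0.03. They were CCS52B, an activator of the anaphase-promoting complex (3.77 ± 0.314 to 2.03 ± 0.362 FPKM, log2 fold change -0.66, adjusted p = 0.00489), MYB3R1, which binds MSA elements (7.51 ± 0.565 to 5.03 ± 0.186 FPKM, -0.50, adjusted p = 0.00836), CKS2, a CDK-binding subunit (19.6 ± 1.69 to 14.7 ± 1.199 FPKM, -0.39, adjusted p = 0.0156), and CDKD;3, a CDK-activating kinase. The CKS2 call was lost without wild type 1 or hy5 4 (up to 0.0980). None of 8 other cyclin and SMR genes tested was called by limma. An unadjusted limma p under 0.05 was found for 2 of them, both lower in hy5, against 17.7% of all genes on that side and 35.9% in either direction.

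**Figure D4:**
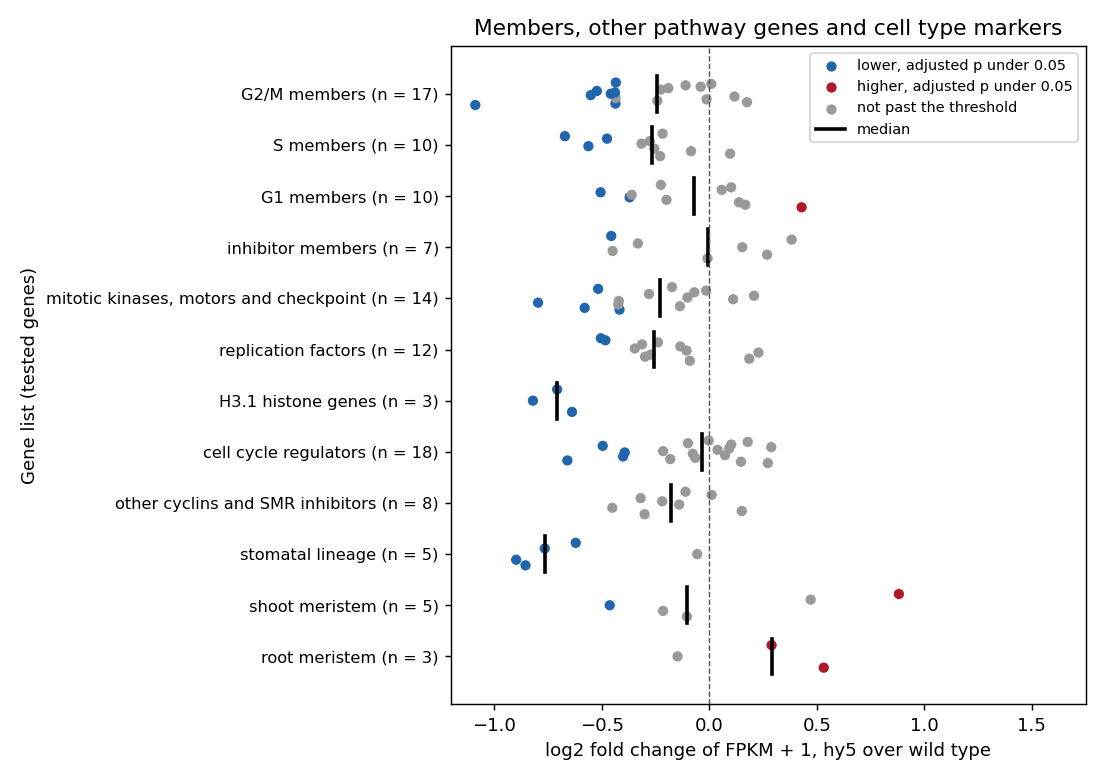
Log2 fold change of FPKM + 1 in hy5 over wild type for each tested gene (points, blue lower, red higher, grey not past the threshold) and list median (black bars), for the genes by phase, the other pathway lists and markers of dividing tissues, with seed storage genes not drawn. The H3.1 and stomatal lineage medians are -0.71 and -0.77, and the meristem markers lie on both sides of 0.

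Markers of dividing tissues were read beside these genes, and their part in the result was not tested. In the stomatal lineage, where leaf epidermal cells divide asymmetrically, 4 of 5 tested markers were lower (80.0%, against 11.1% of all genes). They were SPCH, which starts the lineage (2.65 ± 0.216 to 1.15 ± 0.0647 FPKM), the receptor-like TMM (11.3 ± 0.0888 to 7.07 ± 1.09 FPKM) and the peptide genes EPF1 and EPF2. Their log2 fold changes ran from -0.62 to -0.90. FAMA, which acts at the last division, was not called (6.12 ± 1.03 and 5.80 ± 0.416 FPKM), and MUTE and BASL were under the filter. The 7 genes summed to 24.8 to 28.2 FPKM in wild type and 15.6 to 17.8 FPKM in hy5.

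Shoot meristem markers did not share a direction, with 1 of 5 tested higher and 1 lower, beside 11.7% and 11.1% of all genes. STM, the homeobox gene that maintains the meristem, rose from 3.18 ± 0.495 to 6.71 ± 1.09 FPKM (adjusted p = 0.000794), while AN3, a coactivator that prolongs cell division in leaves, fell from 7.91 ± 1.08 to 5.47 ± 0.942 FPKM (adjusted p = 0.0295, lost in 5 alternatives, up to 0.149). KNAT1, CLV1 and ANT were not called, WUS and CLV3 were at or near 0 in all libraries, and the 7 genes summed to 63.8 to 75.3 FPKM in wild type and 64.1 to 72.8 FPKM in hy5. Of 3 root meristem markers tested SHR and AT5G48940 were higher (66.7%, against 11.7% of all genes). These calls were lost in 6 and 2 of the alternatives, and SCR was not called. PLT1, PLT2 and WOX5 were under the filter and had no test. All hy5 values of PLT1 were above wild type, at 0.213 ± 0.0749 FPKM in wild type and 0.499 ± 0.246 FPKM in hy5. The 6 root markers summed to 34.97 to 39.8 FPKM in wild type and 40.1 to 40.2 FPKM in hy5. Seed storage genes, transcribed in maturing seed, summed to 31.1, 184.2 and 81.3 FPKM in wild type 1, 2 and 3 and to 1.48 to 8.52 FPKM in hy5. Over 5 genes the median log2 fold change was -3.73, and 3 were called lower (60.0%, against 11.1% of all genes). The calls of SESA1, SESA3 and OLEO1 were lost in 3, 4 and 5 of the alternatives. The part of the seed storage genes in the result was not tested.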

How the data were processed

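The authors deposited 1 table per library of FPKM values, as the header of each file states (per the file headers). Tools listed in the submitters' processing notes, with no role given, are Cufflinks, TopHat, Bowtie2, HISAT2 2.2.1.0, Trimmomatic 0.36 and DESeq 1.18.0, and the listed build is TAIR10. Whether counting used strand is not given in the sources used here. Such values do not show counts, so intervals cover the spread between libraries.

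Genes had to reach 1 FPKM in 3 or more libraries. The genotypes were then compared on log2(FPKM + 1) by limma 3.58.1 in R 4.3.3 (trended, robust empirical Bayes). Every adjusted p is a Benjamini-Hochberg value over 17205 genes, two-sided, threshold 0.05. Fold changes on this scale understate changes of low genes. Relative depth was read from genes under 0.15 FPKM. Overlaps, identity (blastn 2.17.0) and upstream windows came from RefSeq TAIR10.1, whose coordinates are printed. 1 gene of 26984 has no full window.

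Members and lists were chosen with earlier results of these data known. Described in full were all called members and 13 taken whatever their result, and from each pathway list up to 3 called genes with the smallest p. Others complete a count and were named after their values were seen. Figures used Python 3.11.15 and matplotlib 3.10.9.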

Additional observations from a re-analysis of the deposited data

How the results depend on the processing

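Of the 14 called cell cycle genes, 5 (CYCB1;2, CYCA2;3, SMR1, PCNA1 and CDC20.1) stayed past the threshold in each of the 13 alternatives (other pseudocounts, filters and scalings, and each library left out), and none of the 14 changed direction in any. Of the 31 tested genes that were not called, 7 passed in at least 1. Leaving out a library leaves 5, which by construction gives fewer calls for the same spread.

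With 1 library left out, the number of genes called over the whole table ranged from 2028 to 4309. Lower members ranged from 5 to 16 in all, from 0 to 3 in G1, from 1 to 4 in S phase, from 3 to 8 in G2/M and from 1 to 2 among inhibitors. Higher members ranged from 0 to 3 in all, and from 0 to 1 both in G1 and among inhibitors. Called genes of the other pathway lists, counted in either direction, ranged from 7 to 18. With a filter at 5 FPKM, which removes E2FA, 1 G1 gene was lower, and with upper-quartile scaling 2 inhibitors were lower.

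Of the genes that were not called, 10 changed sign in at least 1 alternative. With a pseudocount of 5 CYCB2;4 was at -0.00175, and with quantile scaling CDKB2;2 was at 0.000394 and KRP1 at 0.00432 on the log2 scale. With 1 library left out, log2 fold changes ranged from -0.11 to 0.057 for CYCB2;2, from -0.15 to 0.17 for CYCB2;4, from -0.067 to 0.16 for CYCA2;2, from -0.40 to 0.00999 for CYCA3;1, from -0.088 to 0.22 for CYCA3;2, from -0.071 to 0.10 for CDKB2;2, from -0.099 to 0.056 for KRP1, from -0.013 to 0.18 for E2FB, from -0.043 to 0.22 for E2FC and from -0.27 to 0.12 for MCM2. The cause was not tested. Scalings moved the median of all genes by 0.01 or less.

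No paired analysis was possible because replicate numbers differ between the genotypes (1 to 3 against 4 to 6), so the groups share no number. Read counts are unknown, which leaves the precision of genes under about 2 FPKM, such as CYCB1;1 and E2FA, to the spread between libraries alone.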
